A study of Gallus gallus with 20 samples.

Results

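The 9 claw keratins described here are the genes named Chr25_Claw1 to Chr25_Claw9 in a keratin table of chicken skin appendages. They were taken by those row names, a rule that uses no measured value but was set with earlier results of these data known. They are 9 of 180 keratins and of 16290 genes measured, and Chr25_Claw10 to Chr25_Claw12 are not among them. The names place the 9 on chromosome 25, and no coordinates or sequences for them were analysed here. RNA was sequenced from White Leghorn embryos at embryonic day 16, in 20 libraries that form 9 groups, so that scutate scales with an added gene or exposed to retinoic acid can be compared with control scales and with feathers.

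The control was scutate scale, the broad plates of the shank and foot, misexpressing green fluorescent protein (GFP, n = 2). Other scales misexpressed beta-catenin (n = 2), which carries canonical Wnt signals to the nucleus, Grem1 (n = 2), which binds and blocks bone morphogenetic proteins outside the cell, or Spry2 (n = 2), which dampens growth factor signalling through receptor tyrosine kinases. Sox2 (n = 2) and Sox18 (n = 3), both DNA-binding regulators of transcription, and the construct Zic1-deltaC (n = 3) completed the misexpression groups. All of these, GFP included, were delivered with RCAS, a replication-competent avian retroviral vector, either as virus at embryonic day 3 or as plasmid with electroporation. The labels do not say which route served which group, nor which cells carried the vector. Scales of embryos that received retinoic acid (RA) at embryonic day 9 (n = 2) carry no vector in their labels and have no vehicle control. Normal feather tissue was untreated dorsal skin (n = 2), so that tissue, body site and vector differ together from the GFP scales. The labels do not tie the replicates of a group to different embryos, and p-values therefore describe the spread between libraries, which may be technical in part.

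Beta-keratins, also called corneous beta proteins, are the stiff structural proteins of the scales, claws, beak and feathers of birds and reptiles. They are small proteins with a conserved core of beta strands that pack into filaments, and keratinocytes fill with them as they cornify. The genes lie in tandem arrays of closely related copies, and chicken chromosome 25 holds an array with claw, scale, keratinocyte, feather-like and feather classes. Class names come from the structure with which a subfamily was first linked, and claw-class genes are not restricted to claws. The files give no separate role to any of the 9. Because such copies are much alike and the authors' handling of reads that map to several genes is not given in the sources used here, how reads were split between single members is uncertain. Levels are given as RPKM, reads scaled to transcript length and library size, which allows levels of different genes to be compared per length.

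Summed RPKM over all genes ranged from 373552 to 750919 per library, and read depth is unknown because no read totals were used. Keratins made up 4.39% to 74.4% of that sum, and the 9 claw keratins 0.00395% to 8.18%. Because RPKM is relative to the library, a change in the keratin share moves the values of the other genes. Libraries of the same group correlated over genes at Pearson's r of 0.989 to 0.997, against 0.783 to 0.979 between groups. GFP replicate 1 stood apart in 88 genes, which reached 1 RPKM and exceeded 4 times the value in each of the others, whereas the other 19 libraries held 0 to 2 such genes each. The virus-delivered genes could not be checked, because the other 16110 genes are listed by identifiers that the reference did not pair with symbols.

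In GFP scales the 9 claw keratins summed to 31509 ± 4042 RPKM (SD, n = 2), and in feather to 29.7 ± 3.82 RPKM (n = 2), a 1061-fold difference. The GFP libraries read 28651 and 34366.5 RPKM and the feather libraries 32.4 and 27.0. Scales with beta-catenin stood at the level of GFP, and every other scale group stood below both GFP libraries. In these bulk tissues, fewer cells expressing the genes and less RNA per cell cannot be told apart.

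The sum in beta-catenin scales was 31754 ± 7748 RPKM (n = 2, libraries 37233 and 26275), which is 1.01 times GFP. The higher beta-catenin library lay above both GFP libraries and the lower one below both. Grem1 scales held 17321 ± 4783 RPKM (n = 2, libraries 13938 and 20703), a level 1.82-fold lower than GFP. Zic1-deltaC scales held 11796 ± 1407 RPKM (n = 3, libraries 13012, 12122 and 10254), 2.67-fold lower, and RA scales 11153 ± 1546 RPKM (n = 2, libraries 10059.7 and 12246), 2.83-fold lower. The Zic1-deltaC and RA libraries overlapped each other, and none reached the lower Grem1 library.

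Sox18 scales held 7034 ± 668 RPKM (n = 3, libraries 7198, 6299 and 7604), a sum 4.48-fold lower than GFP and below every RA and Zic1-deltaC library. Spry2 scales held 2586 ± 1518 RPKM (n = 2, libraries 1513 and 3659.5), 12.2-fold lower. The Spry2 replicates differed more from each other than those of any other group relative to their mean, and without Spry2 replicate 2 the sum was 0.0480 times GFP instead of 0.0821 times. Sox2 scales held 514 ± 133 RPKM (n = 2, libraries 608 and 419.8), 61.3-fold lower and still above both feather libraries. Sums over the members are given without a test.

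**Figure D1:**
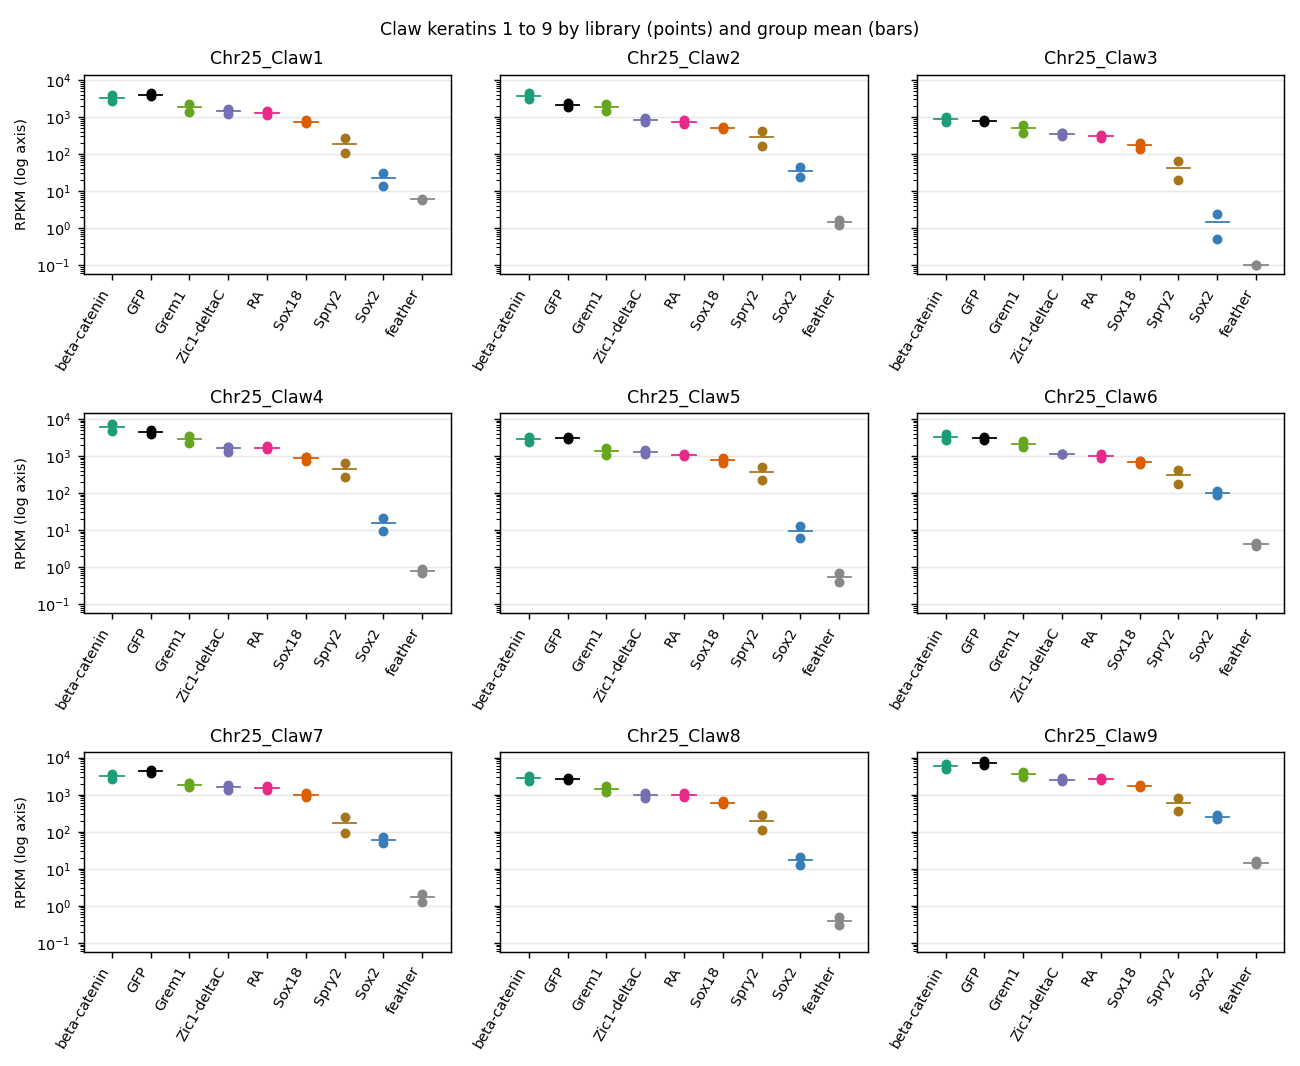
RPKM of each claw keratin (log axis) in every library (points), with the mean of each group (short bars). In all 9 panels the GFP and beta-catenin points are among the highest, and Sox2 and then feather the lowest: the sum of the 9 was 514 RPKM in Sox2 and 29.7 RPKM in feather.

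The single members kept a fixed outer order in nearly all libraries. Chr25_Claw9 was the highest of the 9 in every library except beta-catenin replicate 1, where Chr25_Claw4 stood at 7088 RPKM and Chr25_Claw9 at 6948.5. Chr25_Claw3 was the lowest in all 20. In GFP scales the members spanned from 776 ± 91.4 RPKM (n = 2) for Chr25_Claw3 to 7246 ± 1018 RPKM (n = 2) for Chr25_Claw9.

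Chr25_Claw9 read 6526 and 7966 RPKM in GFP, 6948.5 and 5035 in beta-catenin, 3010.3 and 4198 in Grem1, and 2815, 2515 and 2319.6 in Zic1-deltaC. It read 2422 and 2844 RPKM in RA, 1793, 1616 and 1692 in Sox18, 352 and 825 in Spry2, 292 and 216 in Sox2, and 16.0 and 13.3 in feather. Its GFP libraries overlapped beta-catenin and lay above all others, and its Spry2 libraries lay above its Sox2 libraries by less than in any other member on the log2 scale.

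Chr25_Claw3 read 711 and 840.1 RPKM in GFP, 1009 and 721 in beta-catenin, 378 and 623 in Grem1, and 363, 364 and 314 in Zic1-deltaC. It read 265 and 333 RPKM in RA, 171, 137 and 204 in Sox18, 19.3 and 65.0 in Spry2, 2.4 and 0.5 in Sox2, and 0.1 in both feather libraries. Values were deposited to 1 decimal, so its feather level lies at the smallest value above 0 that the table can show, and its fitted changes in feather depend on the pseudocount.

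Chr25_Claw2 read 1908 and 2312 RPKM in GFP, and its beta-catenin libraries, at 4342.5 and 3046, lay above both. It was the one member with both beta-catenin libraries above both GFP libraries. Its Grem1 libraries, at 1455.5 and 2276.5 RPKM, overlapped GFP, which held for no other member. Zic1-deltaC read 934, 874 and 735 RPKM, RA 660.5 and 815, Sox18 517, 478 and 540.4, Spry2 161 and 409, Sox2 45.5 and 24.1, and feather 1.7 and 1.2.

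Chr25_Claw7 behaved the other way in beta-catenin, with libraries at 3571 and 2736 RPKM below both GFP libraries at 3914 and 4743. In Grem1 it read 1590.3 and 2104 RPKM, in Zic1-deltaC 1861, 1711 and 1322, in RA 1358 and 1738, and in Sox18 963, 856 and 1098. Spry2 held 94.6 and 245 RPKM, Sox2 71.8 and 50.5, and feather 2.1 and 1.3. The Sox2 libraries thus came close to the lower Spry2 library for this member, without overlapping it.

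Chr25_Claw4, the second most abundant member in GFP scales, read 3990 and 4854.5 RPKM there and 7088 and 4684 in beta-catenin, and the groups overlapped. Grem1 held 2216 and 3385 RPKM, Zic1-deltaC 1756, 1708 and 1309, RA 1495 and 1794, and Sox18 908, 725.5 and 926. It fell to 266 and 637 RPKM in Spry2, 21.5 and 9.1 in Sox2, and 0.9 and 0.7 in feather.

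Chr25_Claw6 read 2750.0 and 3230.4 RPKM in GFP, 3831.5 and 2711 in beta-catenin and 1692 and 2501 in Grem1. It was lower in Zic1-deltaC at 1112, 1115 and 1123.5 RPKM, in RA at 896 and 1095, in Sox18 at 743, 607 and 748, and in Spry2 at 174 and 423. With 111 and 86.6 RPKM it was the second most abundant member in Sox2 scales, and in feather it read 4.4 and 3.7 RPKM. The 3 Zic1-deltaC libraries differed least for this member.

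Chr25_Claw1, Chr25_Claw5 and Chr25_Claw8 had GFP means of 3999.8 ± 533, 3009 ± 301 and 2627 ± 274 RPKM (n = 2 each). Chr25_Claw1 averaged 22.4 ± 12.3 RPKM in Sox2 and 6.0 ± 0.283 in feather, where it was the second most abundant member. Chr25_Claw5 averaged 9.2 ± 4.53 RPKM in Sox2 and 0.55 ± 0.212 in feather. Chr25_Claw8 averaged 16.9 ± 5.59 RPKM in Sox2 and 0.4 ± 0.141 in feather. All 3 overlapped GFP in beta-catenin, and all 3 lay below both GFP libraries in every library of the other 7 groups. Such separations from 2 GFP libraries are descriptions only, and the share of all genes that show them was not counted.

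Levels were compared with limma on log2(RPKM + 1), fitted to the 11863 genes that reached 1 RPKM in at least 2 libraries, with all 20 libraries sharing one estimate of the spread. All 9 members passed that filter. Calls use the Benjamini-Hochberg adjusted p over all genes within a comparison, with a threshold of 0.05. Log2 changes below are on the log2(RPKM + 1) scale, which understates changes of members near 1 RPKM. All 8 comparisons with GFP share the same GFP libraries, so their results are not independent of each other. The 9 members also vary together between libraries. In beta-catenin against GFP the standard errors were 0.29 to 0.42 for their levels. They were 0.08 to 0.14 for each level relative to the other 8. A count of members called is therefore not a count of separate observations.

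In beta-catenin scales 0 of the 9 claw keratins fell, where 15.2% of all genes did, and 0 rose, where 7.97% of all genes did. The median log2 change was 0.06 over the members and -0.08 over all genes. The changes ran from -0.46 for Chr25_Claw7 to 0.79 for Chr25_Claw2, with limma adjusted p from 0.107 to 0.911. Chr25_Claw2 was the 1 member with an unadjusted p under 0.05. Standard errors of 0.29 to 0.42 leave room for changes of that size in either direction.

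In Grem1 scales 5 of the 9 fell, where 18.2% of all genes did, and the members' median log2 change was -0.88 against -0.05 over all genes. The 5 were Chr25_Claw7 (log2 change -1.24), Chr25_Claw5 (-1.21), Chr25_Claw1 (-1.17), Chr25_Claw9 (-1.02) and Chr25_Claw8 (-0.88), with limma adjusted p of 0.00879 to 0.0484. The other 4 had negative changes that did not pass, from -0.68 for Chr25_Claw4 to -0.21 for Chr25_Claw2. The count rested on single libraries: it was 0 without GFP replicate 2 and 0 without Grem1 replicate 1, and 3 without GFP replicate 1.

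In Zic1-deltaC scales all 9 fell, where 9.9% of all genes did, with log2 changes from -1.50 for Chr25_Claw9 to -1.16 for Chr25_Claw3 and a median of -1.42 (0.05 over all genes). The limma adjusted p ran from 0.000684 to 0.0366. Without GFP replicate 2, 4 of the 9 still passed. Chr25_Claw3 lost its call without any one of the 5 libraries of this comparison.

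In RA scales all 9 fell as well, where 52.2% of all genes did, with log2 changes from -1.66 for Chr25_Claw1 to -1.38 for Chr25_Claw3 and a median of -1.49 (-0.31 over all genes). The limma adjusted p ran from 0.000397 to 0.0104. With libraries scaled by median ratios, which shifted RA values by 0.37 on the log2 scale against GFP, 16.8% of all genes and 7 of the 9 members were lower, and Chr25_Claw3 and Chr25_Claw4 did not pass. Chr25_Claw3 also missed the threshold without RA replicate 1 or without GFP replicate 2.

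Sox18, Spry2 and Sox2 scales and feather each had all 9 members lower than GFP, and the count stayed 9 with any single library left out. In Sox18, where 41.3% of all genes fell, the members' log2 changes ran from -2.42 for Chr25_Claw1 to -1.97 for Chr25_Claw5, with a median of -2.11 (limma adjusted p 9.43e-06 to 0.000179). In Spry2, where 7.41% of all genes fell, they ran from -4.81 for Chr25_Claw7 to -3.03 for Chr25_Claw2, with a median of -3.74 (limma adjusted p 2.95e-08 to 9.4e-06). In Sox2, where 10.4% of all genes fell, they ran from -8.42 for Chr25_Claw3 to -4.84 for Chr25_Claw9, with a median of -7.23 (limma adjusted p 6.62e-12 to 1.47e-09). The spread among members was thus wider in Sox2 and Spry2 than in Sox18. The limma p in Spry2 uses the spread shared by all groups. The sum varied more between the Spry2 libraries (SD 58.7% of the mean) than in any other group. The shared spread may thus understate that of Spry2 itself, and the Spry2 p-values may be too small.

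In feather, where 78.6% of all genes fell, the members' log2 changes ran from -11.26 for Chr25_Claw4 to -8.85 for Chr25_Claw9, with a median of -9.75 against -0.93 over all genes (limma adjusted p 4.9e-14 to 3.86e-12). For Chr25_Claw3, Chr25_Claw4, Chr25_Claw5 and Chr25_Claw8, all below 1 RPKM in feather, the size of the change depends on the pseudocount. Median-ratio scaling shifted feather by 1.28 on the log2 scale against GFP and reduced the share of all genes called lower to 36.6%. The 9 members stayed lower, and their summed level was then 0.00232 times GFP instead of 0.000943 times. Scaling also shifted Sox18 by 0.23, Spry2 by -0.12 and Sox2 by -0.34, and all 9 members stayed lower in each, where 24.7%, 12.4% and 21.2% of all genes were then lower.

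**Figure D2:**
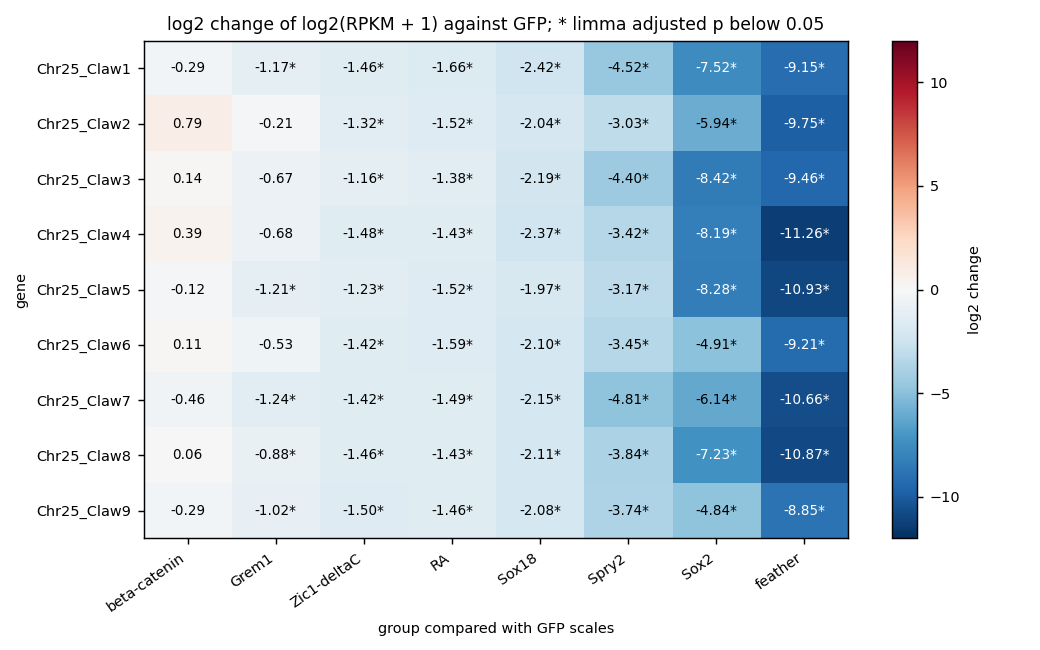
Log2 change of each claw keratin (rows) in each group (columns) against GFP scales, on the log2(RPKM + 1) scale, with a star where the limma adjusted p was below 0.05. No cell of the beta-catenin column and 5 of the Grem1 column carry a star, and the columns from Zic1-deltaC to feather are starred for all 9.

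From highest to lowest sum, the groups ran beta-catenin, GFP, Grem1, Zic1-deltaC, RA, Sox18, Spry2, Sox2 and feather. The order was the same by the mean of log2(RPKM + 1), and median-ratio scaling exchanged Zic1-deltaC and RA. Neighbours in this order were compared in the same limma fit. Spry2 was below Sox18 in all 9 members (10.6% of all genes lower), Sox2 below Spry2 in all 9 (12.9%), and feather below Sox2 in all 9 (82.6%). With median-ratio scaling these shares of all genes were 25.3%, 23.1% and 37.8%. All 9 members stayed lower in the former 2 pairs, and 7 of 9 in feather against Sox2, where Chr25_Claw1 and Chr25_Claw3 lost their calls. The call of Chr25_Claw3 was also lost without feather replicate 1, feather replicate 2 or Sox2 replicate 1. Without Spry2 replicate 1, Chr25_Claw2, Chr25_Claw4 and Chr25_Claw5 lost their calls against Sox18. Without Spry2 replicate 2, Chr25_Claw7 and Chr25_Claw9 lost theirs between Sox2 and Spry2, and Chr25_Claw9 also without Sox2 replicate 2. The smallest changes in the unscaled fit were -0.99 for Chr25_Claw2 in Spry2 and -1.10 for Chr25_Claw9 in Sox2. Between Sox2 and feather the smallest change in that fit was -1.04 for Chr25_Claw3, with means of 1.45 RPKM in Sox2 and 0.1 in feather. As a ratio of mean RPKM the smallest step was that of Chr25_Claw1, from 22.4 ± 12.3 to 6.0 ± 0.283 (n = 2 each).

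The middle of the order was less resolved. RA was lower than Zic1-deltaC in 0 of the 9, where 58.2% of all genes were lower (25.5% with median-ratio scaling), with log2 changes of -0.29 to 0.05, standard errors of 0.27 to 0.38, and 0 members at an unadjusted limma p under 0.05. Zic1-deltaC was lower than Grem1 in 2 of the 9, where 14% of all genes were lower (22.5% scaled). These were Chr25_Claw2 (-1.11, limma adjusted p 0.0106) and Chr25_Claw6 (-0.88, 0.0163), and without Grem1 replicate 2 the count was 0. Sox18 was lower than RA in 1 of the 9, where 13.4% of all genes were lower (23.4% scaled). That member was Chr25_Claw4 (-0.95, limma adjusted p 0.0333), and the count was 0 without RA replicate 1, RA replicate 2, Sox18 replicate 2 or Sox18 replicate 3. Under median-ratio scaling the count was 3, and 6 members had an unadjusted p under 0.05 in the unscaled fit. Against groups further up the order Sox18 was more clearly lower. All 9 members were lower than in Zic1-deltaC (limma adjusted p 0.0114 to 0.0426) and than in Grem1 (0.00016 to 0.0457). For these pairs the share of all genes lower was not counted, and no alternatives were run.

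Within the set, levels moved together across groups: over the 9 group means of log2(RPKM + 1), Pearson's r between 2 members ran from 0.953 for Chr25_Claw3 with Chr25_Claw6 to 0.997 for Chr25_Claw6 with Chr25_Claw9. The points share their libraries, and levels over the 9 groups span a very wide range. Differences between members were therefore read as shares of the sum and as ratios within a library. Shares and ratios of RPKM are changed by no scaling of libraries. The ratios tested below use log2(RPKM + 1), where the added 1 makes those of members at low RPKM depend on scaling. They were not refitted with scaled libraries.

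In the 10 libraries of GFP, RA, Sox18 and Zic1-deltaC scales the shares were nearly the same, although the summed level differed up to 4.48-fold between group means. Chr25_Claw9 made up 20.7% to 25.6% of the sum, Chr25_Claw4 11.5% to 14.9%, Chr25_Claw7 12.9% to 14.4% and Chr25_Claw1 10.1% to 12.7%. Chr25_Claw5 made up 9.25% to 11.6%, Chr25_Claw6 8.55% to 10.96% and Chr25_Claw8 7.92% to 8.85%. Chr25_Claw2 held 6.57% to 7.59% and Chr25_Claw3 2.17% to 3.06%. The mean absolute log2 difference in relative level from GFP was 0.0669 in RA, 0.0984 in Zic1-deltaC and 0.114 in Sox18. Between replicates it was 0.0280 in GFP, 0.0364 in RA, 0.0577 to 0.115 in Zic1-deltaC and 0.0766 to 0.0966 in Sox18. The former values compare group means and the latter single libraries, so they are not like for like.

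**Figure D3:**
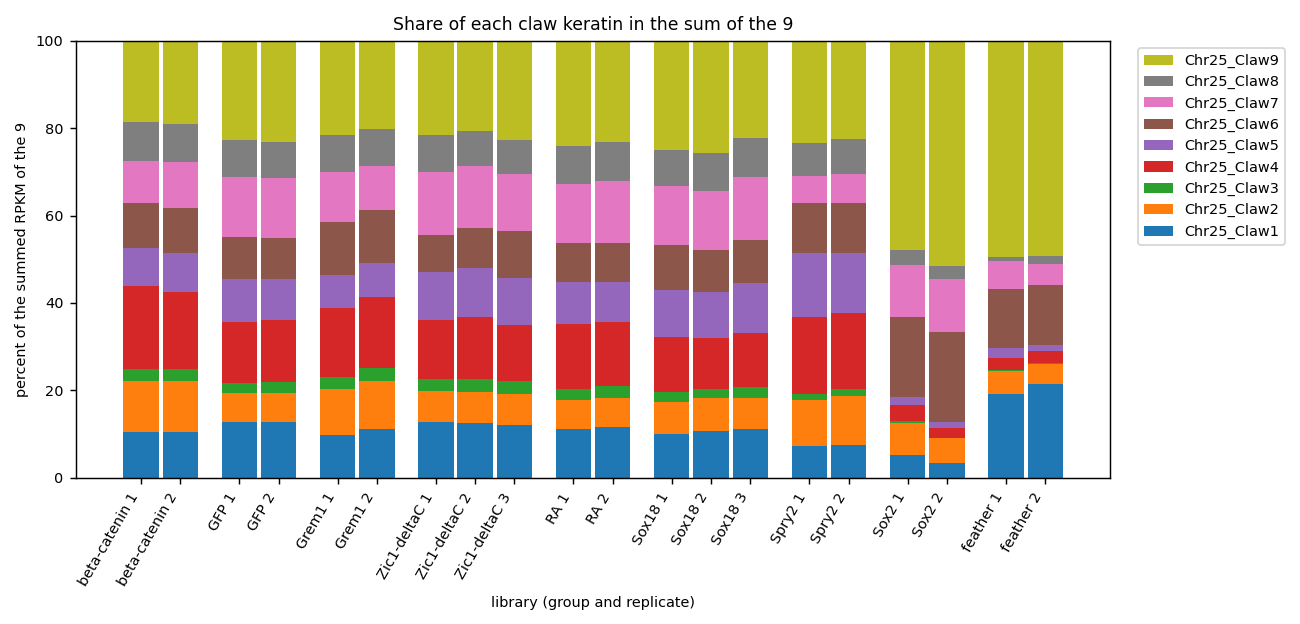
Share of each claw keratin in the summed RPKM of the 9 (percent, stacked to 100) in each of the 20 libraries, ordered by group. GFP, Zic1-deltaC, RA and Sox18 libraries have nearly the same bands, the Chr25_Claw2 and Chr25_Claw4 bands are wider in beta-catenin, Grem1 and Spry2, and Chr25_Claw9 fills 47.9% to 51.5% of the bar in Sox2 and 49.3% to 49.4% in feather.

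Beta-catenin, Grem1 and Spry2 scales departed from those 10 libraries in the same direction in the shares of Chr25_Claw2, Chr25_Claw4 and Chr25_Claw7. These groups did not share one mixture: Chr25_Claw5 averaged 8.81% of the sum in beta-catenin, 7.63% in Grem1 and 14.1% in Spry2. Chr25_Claw2 made up 10.4% to 11.7% of the sum in all 6 of their libraries and Chr25_Claw4 15.9% to 19.04%, both above all 10 libraries of the former groups. Chr25_Claw7 made up 6.25% to 11.4%, below all 10. The shares of the other 6 members overlapped between these sets of libraries, which were put together after their shares were seen and are compared without a test. How many of all genes separate these sets of libraries was not counted. The ratio of Chr25_Claw2 to Chr25_Claw7 was 0.469 to 0.558 in the 10 libraries. It was 1.22 and 1.11 in beta-catenin, 0.915 and 1.08 in Grem1, and 1.70 and 1.67 in Spry2. In Sox2 it was 0.634 and 0.477. In feather it was 0.810 and 0.923, so that the higher feather library lay above the lower Grem1 library. The feather ratios rest on values of 1.2 to 2.1 RPKM. Levels did not follow the grouping of beta-catenin, Grem1 and Spry2, since the sum was as high as GFP in beta-catenin and 12.2-fold lower in Spry2.

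The same 6 libraries differed from the other 14 in a further respect. In all, 25 genes, with 0 keratins among them, reached 1 RPKM in each of the 6 and were listed at 0 in all 14, with a summed level of 592 to 761 RPKM in the 6. The reverse pattern was found in 0 genes. A further 25 genes divided the libraries across this line: they reached 1 RPKM in all libraries of GFP, RA, Spry2 and beta-catenin, each at over 4 times the highest value elsewhere, and so set GFP apart from Grem1, Zic1-deltaC, Sox18, Sox2 and feather. The part of either division in the shares and levels of the claw keratins was not tested.

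The difference of each member from the mean log2(RPKM + 1) of the other 8 in the same library was tested in a limma fit without trend that also held all genes, with p adjusted over all 11872 rows. The background share in this fit counts rows called in either direction, nearly all of them gene levels rather than ratios, so it is not a like-for-like reference for the members. The ratios also depend on each other, because a member that rises lowers the ratios of the others. A count of ratios called is therefore not a count of members that changed separately. In beta-catenin 5 of the 9 ratios differed from GFP (23.3% of all rows). Chr25_Claw2 rose relative to the others by 0.85 ± 0.08 (log2, SE, limma adjusted p 2.56e-06), and Chr25_Claw7 fell by 0.56 ± 0.12 (0.00333). Chr25_Claw4 rose by 0.39, and Chr25_Claw1 and Chr25_Claw9 each fell by 0.36, with limma adjusted p of 0.0146, 0.0184 and 0.0407. Chr25_Claw9 lost its call with a pseudocount of 0.1, with the replicate number as a block, or with only these groups in the fit. Chr25_Claw4 also lost its call with only these groups in the fit. With any 1 of the 4 libraries left out, 2 or 3 of the 5 passed, Chr25_Claw2 and Chr25_Claw7 each time. The level of Chr25_Claw2 itself had not passed the test in this group.

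In Grem1 4 of the 9 ratios differed (31.4% of all rows). Chr25_Claw2 rose by 0.72 ± 0.08 (limma adjusted p 7.49e-06), and Chr25_Claw7, Chr25_Claw5 and Chr25_Claw1 fell by 0.44, 0.41 and 0.36 (0.0114, 0.00248 and 0.0144). The ratio of Chr25_Claw4, whose share was larger in Grem1 than in GFP, was not called (0.18, limma adjusted p 0.215). With only these groups in the fit, Chr25_Claw7 and Chr25_Claw1 lost their calls and Chr25_Claw6 was called. Without GFP replicate 2 the count was 2, and Chr25_Claw2 and Chr25_Claw5 passed with any single library left out. In Spry2 7 of the 9 differed (25.2% of all rows), or 4 without Spry2 replicate 1. Chr25_Claw2 rose by 0.89 ± 0.08 (limma adjusted p 9.13e-07) and Chr25_Claw5 by 0.73 ± 0.09 (2.03e-05). Chr25_Claw7 fell by 1.12 ± 0.12 (5.83e-06) and Chr25_Claw1 by 0.79 ± 0.10 (4.15e-05), and these 4 passed with any single library left out. Chr25_Claw5 thus fell relative to the others in Grem1 and rose in Spry2, while Chr25_Claw2 rose and Chr25_Claw7 fell in all 3 groups. Chr25_Claw3 fell by 0.65 (limma adjusted p 0.00348) and lost its call with a pseudocount of 0.1, with only these groups in the fit, or without Spry2 replicate 1. Chr25_Claw4 rose by 0.46 (0.00554) and lost its call without Spry2 replicate 1. Chr25_Claw6 rose by 0.42 (0.0331) and lost its call with a pseudocount of 0.1 or without any 1 of the 4 libraries.

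RA and Zic1-deltaC had 0 of the 9 ratios called, where 60.4% and 24.6% of all rows were called. The largest differences were 0.19 in RA, with 0 members at an unadjusted limma p under 0.05, and 0.25 in Zic1-deltaC, with 1. In Sox18 3 of the 9 differed (53.5% of all rows), each by less than 0.3. Chr25_Claw1 fell by 0.29 and Chr25_Claw4 by 0.24, and Chr25_Claw5 rose by 0.22 (limma adjusted p 0.0156, 0.0485 and 0.0340). Chr25_Claw4 lost its call with a robust prior, with the replicate number as a block, or with only these groups in the fit. Chr25_Claw5 lost its call with a pseudocount of 0.1 or with only these groups in the fit. The count was 0 without GFP replicate 1 or without GFP replicate 2, and 1 without Sox18 replicate 3.

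**Figure D4:**
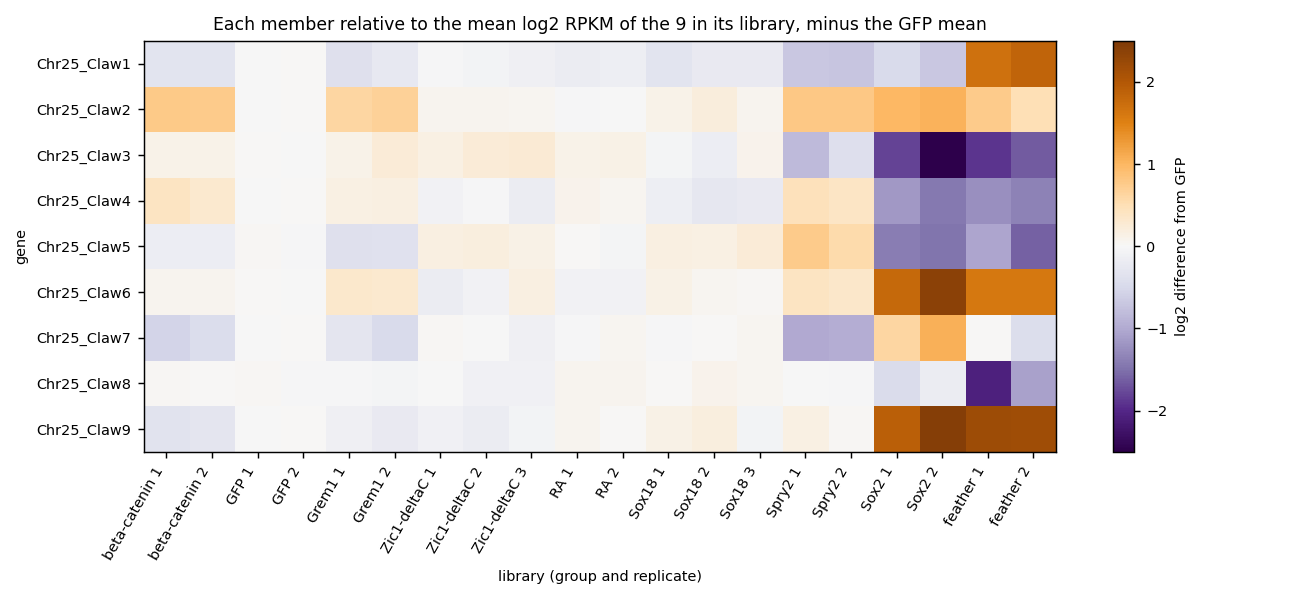
Each claw keratin (rows) relative to the mean log2 level of the 9 in its library, shown as the log2 difference from the GFP mean (colour) for each of the 20 libraries (columns). Zic1-deltaC, RA and Sox18 columns are pale, Chr25_Claw2 is raised and Chr25_Claw7 lowered in beta-catenin, Grem1 and Spry2, and Sox2 and feather are the most changed, at a mean absolute difference of 1.36 and 1.38.

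Sox2 scales had the most uneven fall among the scale groups, with all 9 ratios called (58.7% of all rows). Chr25_Claw9 and Chr25_Claw6 rose relative to the others by 2.24 ± 0.12 and 2.16 ± 0.13 (limma adjusted p 6.42e-10 and 3.29e-09), and Chr25_Claw2 and Chr25_Claw7 by 0.998 and 0.78. Relative to the others Chr25_Claw3 (log2 difference -1.79), Chr25_Claw5 (-1.63), Chr25_Claw4 (-1.53), Chr25_Claw1 (-0.77) and Chr25_Claw8 (-0.46) fell. Chr25_Claw8 lost its call with a pseudocount of 0.1, at a limma adjusted p of 0.121. The size of the Chr25_Claw3 difference depends on the pseudocount and was -2.61 with 0.1. In shares, Chr25_Claw9 made up 47.9% and 51.5% of the sum and Chr25_Claw6 18.3% and 20.6%, whereas Chr25_Claw4 dropped to 3.54% and 2.17%. Chr25_Claw7 made up 11.81% and 12.03% in Sox2, below its GFP shares of 13.66% and 13.8%. Chr25_Claw2 made up 7.48% and 5.74%, on both sides of its GFP shares of 6.66% and 6.73%. The rises of Chr25_Claw2 and Chr25_Claw7 thus held against the mean log2 level of the others, and not as larger shares in both libraries. In RPKM, Chr25_Claw9 was 28.5-fold and Chr25_Claw6 30.2-fold lower than in GFP, and Chr25_Claw4 and Chr25_Claw5 were 289-fold and 327-fold lower. The largest fold was that of Chr25_Claw3, 535-fold, from Sox2 libraries at 2.4 and 0.5 RPKM.

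In feather the residual signal was again mostly Chr25_Claw9, at 49.4% and 49.3% of the sum. Chr25_Claw1 followed with 19.1% and 21.5% and Chr25_Claw6 with 13.6% and 13.7%. The remaining RPKM values were between 0.1 and 2.1. The ratio test is not read in feather, because 4 members lay below 1 RPKM there and the pseudocount alters their ratios and those of the others. Without a pseudocount, and with no test, the level relative to the mean log2 RPKM of the 9 differed from GFP by 2.20 and 2.18 (log2) for Chr25_Claw9, 1.69 and 1.84 for Chr25_Claw1, 1.61 in both libraries for Chr25_Claw6, and 0.75 and 0.49 for Chr25_Claw2. It differed by 0.014 and -0.43 for Chr25_Claw7, whose libraries lay on both sides of GFP. Chr25_Claw3, Chr25_Claw4, Chr25_Claw5 and Chr25_Claw8 lay below GFP in both libraries, with differences from -2.08 to -1.05. In shares Chr25_Claw2 was lower in feather (4.44% and 5.25%) than in GFP (6.66% and 6.73%). Chr25_Claw1 differed between Sox2 and feather, with a share of 5.11% and 3.26% in Sox2, below all 10 libraries of GFP, RA, Sox18 and Zic1-deltaC, and a share above them in feather.

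The other claw keratins of chromosome 25, Chr25_Claw10 to Chr25_Claw12, were lower than GFP in 3 of 3 in Zic1-deltaC, RA, Sox18, Spry2, Sox2 and feather. Of all genes, 9.9%, 52.2%, 41.3%, 7.41%, 10.4% and 78.6% were lower in these groups. The 3 genes parted in beta-catenin, where 15.2% of all genes fell and 7.97% rose, and in Grem1, where 18.2% fell and 13.2% rose. Chr25_Claw12 fell in Grem1 (log2 change -1.09, limma adjusted p 0.0424), and its lower level in beta-catenin did not pass (-1.02, 0.0685). Chr25_Claw11 rose from 958 ± 89.9 RPKM in GFP to 2003 ± 566 in beta-catenin and 2126 ± 552 in Grem1 (n = 2 each; log2 change 1.04 and 1.13, limma adjusted p 0.0356 and 0.0185), while Chr25_Claw10 fell in both (log2 change -0.93 and -1.66, limma adjusted p 0.0404 and 0.000819).

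By Pearson's r over the 9 group means of log2(RPKM + 1), the 5 keratins most like the mean of the 9 members were Chr25_Claw10 (0.981), Chr25_Ktn15 (0.979), Chr25_Claw11 (0.972), Chr25_scale16 (0.970) and Chr25_scale15 (0.967). All 5 carry names of chromosome 25. Chr25_Ktn15, of the keratinocyte class, differed in RA, where it rose from 1609.6 ± 254 to 2786 ± 290 RPKM (n = 2 each; log2 change 0.80, limma adjusted p 0.0360) and the 9 members fell. The scale keratins differed in Spry2: Chr25_scale15 stood at 5699 ± 663 RPKM against 9496 ± 433 in GFP (n = 2 each), a smaller step than the 12.2-fold one of the sum of the claw keratins. That step did not pass (log2 change -0.74, limma adjusted p 0.129), nor did that of Chr25_scale16 in Spry2 (-0.94, 0.0775).

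**Figure D5:**
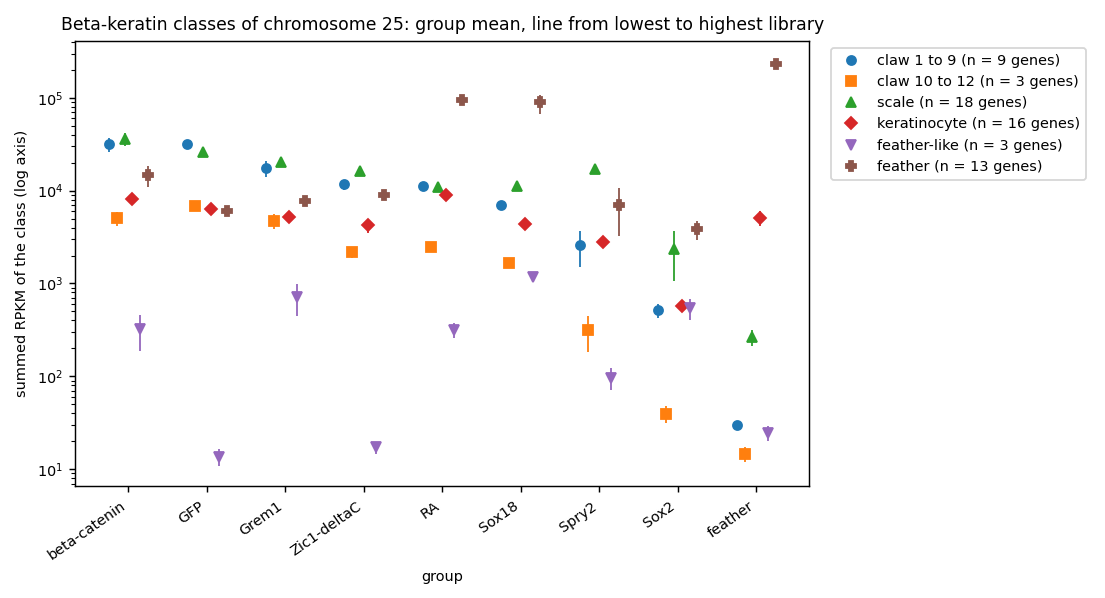
Summed RPKM (log axis) of the 6 beta-keratin classes named for chromosome 25 in each group, with markers at the group mean and lines from the lowest to the highest library. The 9 claw keratins run from 31509 RPKM in GFP to 29.7 in feather, while the feather class runs the other way, from 6044.5 in GFP to 229287 in feather.

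The scale class, the structural beta-keratins of the scale plates, was followed as 16 of 18 genes that passed the filter. Of these, 0 fell in beta-catenin (15.2% of all genes lower), 1 in Grem1 (18.2%), 6 in Zic1-deltaC (9.9%), 9 in RA (52.2%), 11 in Sox18 (41.3%), 8 in Spry2 (7.41%), 15 in Sox2 (10.4%) and 11 in feather (78.6%). The count in RA is near the share of all genes and that in feather below it. Its sum was 26215 ± 1179 RPKM in GFP, 16901 ± 2144 in Spry2, 2353 ± 1816 in Sox2 and 264 ± 75.0 in feather (n = 2 each). Scale keratins rose in 4 of 16 in beta-catenin (7.97% of all genes higher), 3 in Grem1 (13.2% of all genes higher) and 1 in Spry2 (17.9%), and 0 in the other 5 groups, where 14.8% of all genes were higher in Zic1-deltaC, 8.34% in RA, 12.3% in Sox18, 48.5% in Sox2 and 9.68% in feather. The claw keratins of the set rose in 0 of 9 in all 8 comparisons, while Chr25_Claw11, outside the set, rose in beta-catenin and Grem1.

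The keratinocyte class, beta-keratins first found in cultured keratinocytes, passed the filter in 14 of 16 genes. It fell in 12 and rose in 1 of them in Sox2, where 10.4% of all genes fell and 48.5% rose. In RA, where all 9 claw keratins fell, it rose in 7 and fell in 2, beside 8.34% and 52.2% of all genes. In beta-catenin, Grem1 and Zic1-deltaC it fell in 0, 5 and 6 (15.2%, 18.2% and 9.9% of all genes) and rose in 6, 1 and 0 (7.97%, 13.2% and 14.8%). In Sox18, Spry2 and feather it fell in 6, 7 and 9 (41.3%, 7.41% and 78.6% of all genes) and rose in 4, 2 and 4 (12.3%, 17.9% and 9.68%). Against these shares its fallen count is near the background in Sox18 and below it in RA and feather.

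The feather class on chromosome 25, the beta-keratins of barbs and barbules, had all 13 genes higher in RA (8.34% of all genes higher), Sox18 (12.3%) and feather (9.68%). Its sum was 6044.5 ± 402 RPKM in GFP (n = 2), 93809 ± 275 in RA (n = 2), 89954 ± 20711 in Sox18 (n = 3) and 229287 ± 28185 in feather (n = 2). In beta-catenin, Grem1, Zic1-deltaC and Spry2 it rose in 9, 4, 4 and 4 of 13, where 7.97%, 13.2%, 14.8% and 17.9% of all genes did, and fell in 0, 0, 0 and 1. In Sox2, where the claw keratins stood 61.3-fold lower, 3 of 13 rose, where 48.5% of all genes did, and 4 fell, where 10.4% did, and the sum was 3847 ± 1281 RPKM. The 3 feather-like genes rose in 3 of 3 in beta-catenin, Grem1, RA, Sox18, Spry2 and Sox2, where 7.97%, 13.2%, 8.34%, 12.3%, 17.9% and 48.5% of all genes did. They rose in 0 in Zic1-deltaC (14.8% of all genes) and in 1 in feather (9.68%). The class levels match the tissue labels in that scale and claw classes were high in GFP scales and feather keratins in feather.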

How the data were processed

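RNA was extracted with Trizol from dissected tissue and made into libraries with Illumina TruSeq RNA V2, per the labels' protocols. Per the submitters' processing notes, TopHat2, Partek and the build galGal4 were used, with versions, annotation and multi-mapping rules left unstated. The authors deposited RPKM values per gene, to 1 decimal, in a table of all genes and one of keratins, whose 180 keratin rows are identical.

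The members and class lists were chosen with earlier results of these data known. Of 16290 genes, the 11863 that reached 1 RPKM in 2 or more libraries entered the fits, and limma 3.58.1 in R 4.3.3 was fitted to log2(RPKM + 1) with an intensity trend over 9 groups (11 residual degrees of freedom). Ratios between members were fitted without the trend and are not read in feather. With 2 libraries against 2 the smallest exact two-sided p is 0.333, so tests rest on limma's pooled spread. All 9 members were described, with the 5 keratins most correlated with their mean and Chr25_Claw10 to Chr25_Claw12. Scripts were tested on simulated data. Alternatives were no filter or one at a mean of 5 RPKM, quantile or median-ratio scaling, a smaller pseudocount (0.1), a robust prior, fits to only the groups compared, the replicate block, and each library left out. The alternatives for neighbouring groups and the order by mean log2 values were added after the data were seen. Figures used Python 3.11.15 with matplotlib 3.10.9, and tables numpy 2.4.6 and pandas 2.3.3.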

Additional observations from a re-analysis of the deposited data

How the results depend on the processing

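The other filters, the robust prior, the fit without trend and the fits to only the groups compared leave the log2 change itself unaltered. Direction could not change there, and only the call could. Over all alternatives run, these included, 903 of the members' log2 changes against GFP kept direction and call, 42 lost a call and 9 changed sign. The 9 were uncalled changes: in beta-catenin Chr25_Claw6 and Chr25_Claw8 with quantile scaling (-0.037 and -0.13), Chr25_Claw3, Chr25_Claw6 and Chr25_Claw8 without beta-catenin replicate 1 (-0.10, -0.14 and -0.20), Chr25_Claw5 without replicate 2 (0.13), Chr25_Claw6 and Chr25_Claw8 without GFP replicate 1 (-0.0033 and -0.046), and in Grem1 Chr25_Claw2 without Grem1 replicate 1 (0.12). With a library left out, the beta-catenin change ran from -0.10 to 0.38 for Chr25_Claw3, from -0.37 to 0.13 for Chr25_Claw5, from -0.14 to 0.36 for Chr25_Claw6 and from -0.20 to 0.32 for Chr25_Claw8, and the Grem1 change of Chr25_Claw2 from -0.53 to 0.12. The number lower in Grem1 was 3 with no filter, quantile scaling or a robust prior, 2 with only those groups, and 0 to 5 with a library left out. In Zic1-deltaC it was 4 to 8 with a library left out, and against Grem1 1 with quantile scaling and 0 to 2 with a library left out. RA below Zic1-deltaC was 1 with quantile scaling. Sox18 below RA was 0 with no filter, a robust prior or the replicate block, 3 with median-ratio scaling, 7 with only those groups and 0 to 1 with a library left out. Ratios called with only the groups compared numbered 3 in beta-catenin, 1 in Zic1-deltaC and 1 in Sox18. With a library left out they numbered 2 to 3 in beta-catenin, 2 to 3 in Grem1, 0 to 3 in Sox18 and 4 to 6 in Spry2. Median-ratio scaling moved the sum in RA from 0.354 to 0.457 times GFP and in feather to 0.00232 times. Over 36 pairs of groups the correlation of the difference between replicates 1 and 2 ran from -0.279 to 0.213, and 3 exceeded 0.1. Such weak correlations give little sign of pairing by replicate number, but cannot show that same-numbered libraries are unpaired. With the number as a replicate block, 4 members were lower in Grem1, 8 in Zic1-deltaC and 9 in RA. The share of higher genes among all called genes moved with median-ratio scaling from 13.8% to 53.7% in RA, 22.9% to 49.3% in Sox18, 34.4% to 53.5% in beta-catenin, 41.9% to 53.0% in Grem1, 70.7% to 51.3% in Spry2, 82.3% to 46.1% in Sox2 and 10.96% to 49.5% in feather. Median-ratio scaling centres the changes of all genes near 0, so a move toward equal numbers is largely built into it. What made the unscaled shares uneven was not tested. Values given to 1 decimal limit Chr25_Claw3, Chr25_Claw4, Chr25_Claw5 and Chr25_Claw8 in feather, where all lay below 1 RPKM.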
